A study of Mus musculus with 6 samples.

Results

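The germ cell programme genes Ddx4, Dazl, Stra8, Kit, Prm1, Prm2 and Tnp2 were examined for trimethylation of lysine 27 of histone H3 (H3K27me3) through the mm9 intervals that hold them. They were chosen by gene name, each with a stated interval, by a rule that uses no measured value. Earlier results of these data were known when they were chosen. The 7 genes occupy 5 intervals: Ddx4 on chromosome 13 (chr13:113375001-113455000), Dazl on chromosome 17 (chr17:50405001-50445000), Stra8 on chromosome 6 (chr6:34855001-34905000), Kit on chromosome 5 (chr5:75960001-76065000), and Prm1, Prm2 and Tnp2 together on chromosome 16 (chr16:10785001-10805000). Together the intervals span 295 kb and contained 14 of the 54594 autosomal regions called by MACS2 and 6 of the 36691 called by hiddenDomains. A region is the union of touching or overlapping calls from the 4 libraries.

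H3K27me3 was profiled by chromatin immunoprecipitation and sequencing in spermatogenic cells of mice aged 6 weeks on a mixed background. Control animals were MvhCre;Ezh2fl/+ (2 libraries) and mutant animals MvhCre;Ezh2fl/fl (2 libraries), so that both genotypes carried the Cre and at least 1 floxed Ezh2 allele. The cells were mixed stages with a stated purity of 90%, and a mark present in few cells and a weak mark in many cells cannot be told apart in such bulk samples. Mvh is another name of Ddx4, so the Cre is driven by the promoter of one of the genes described here, and sequence of that promoter in the transgene cannot be told apart from the locus itself.

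H3K27me3 is placed by Polycomb repressive complex 2, with EZH2 or EZH1 as its catalytic subunit, and is typically found over silent, CpG-rich promoters of regulatory genes. The genes studied act at successive steps of male germ cell life. Ddx4 encodes an RNA helicase and Dazl an RNA-binding protein, both germ cell factors from embryonic stages onwards. Kit encodes the receptor tyrosine kinase of differentiating spermatogonia, and Stra8 a retinoic acid-induced factor required to enter meiosis. Tnp2 encodes a transition protein and Prm1 and Prm2 the protamines, which replace histones in spermatids.

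The promoters of these genes differ widely in CpG content, the sequence feature most often associated with H3K27me3. The 250 bases before the annotated start are shown for Ddx4 and Dazl, the intervals with the fewest calls, for Kit and Stra8, whose blocks recur in every library, and for Prm1 at the low end of the range, from RefSeq on GRCm38.p6 (5′ to 3′, on the gene's strand, CpG dinucleotides in capitals). Coordinates in this paragraph are GRCm38.p6 and are not comparable with the mm9 positions of the calls. Ddx4 lies at chr13:112652311-112652560 on the minus strand, Dazl at chr17:50293621-50293870 on the minus strand, Kit at chr5:75574737-75574986 on the plus strand, Stra8 at chr6:34920698-34920947 on the plus strand and Prm1 at chr16:10796824-10797073 on the minus strand.
Ddx4 promoter: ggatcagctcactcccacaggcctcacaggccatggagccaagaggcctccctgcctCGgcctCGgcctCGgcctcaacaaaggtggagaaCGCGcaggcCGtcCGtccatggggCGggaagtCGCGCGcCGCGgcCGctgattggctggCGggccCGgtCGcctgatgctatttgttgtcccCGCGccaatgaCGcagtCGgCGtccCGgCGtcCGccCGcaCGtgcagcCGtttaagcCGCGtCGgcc
Dazl promoter: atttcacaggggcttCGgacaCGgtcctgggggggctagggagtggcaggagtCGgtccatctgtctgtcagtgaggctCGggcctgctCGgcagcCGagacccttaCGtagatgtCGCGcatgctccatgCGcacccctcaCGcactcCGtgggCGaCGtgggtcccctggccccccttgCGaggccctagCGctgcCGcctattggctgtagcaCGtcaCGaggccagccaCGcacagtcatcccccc
Kit promoter: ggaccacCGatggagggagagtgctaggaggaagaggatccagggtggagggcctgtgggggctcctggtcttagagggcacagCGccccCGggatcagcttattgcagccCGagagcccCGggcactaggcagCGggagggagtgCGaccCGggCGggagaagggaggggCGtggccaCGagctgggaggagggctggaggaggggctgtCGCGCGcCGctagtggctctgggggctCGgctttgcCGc
Stra8 promoter: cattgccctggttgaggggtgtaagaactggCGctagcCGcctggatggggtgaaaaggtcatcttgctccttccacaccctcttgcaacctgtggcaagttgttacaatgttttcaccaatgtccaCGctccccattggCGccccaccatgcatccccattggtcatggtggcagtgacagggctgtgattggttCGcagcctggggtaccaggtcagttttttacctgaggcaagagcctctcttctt
Prm1 promoter: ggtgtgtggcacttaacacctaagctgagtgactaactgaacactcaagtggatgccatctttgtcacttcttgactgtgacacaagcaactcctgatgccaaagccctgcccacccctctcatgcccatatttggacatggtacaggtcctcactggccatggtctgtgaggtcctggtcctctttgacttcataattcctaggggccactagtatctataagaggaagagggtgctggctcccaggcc

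Ddx4 had 31 CpG in this stretch, a number that 4.93% of the 27025 genes with a promoter sequence reached or exceeded. Dazl had 20 CpG (reached or exceeded by 17.7% of genes) and Kit 17 (23.6%). Stra8 had 5, close to the median of 6 over all genes. Prm2 and Tnp2 had 2 each and Prm1 had 0, as many as 8.26% of genes. Of 12 other listed postmeiotic genes, among them Tnp1 and Odf1, 11 were matched to a promoter, with a median of 2 CpG and a range from 0 to 24. Ddx4, Dazl and Kit thus had more CpG than Prm1, Prm2 and Tnp2. Ddx4 also had more than every matched gene of the postmeiotic list, whereas Dazl and Kit did not. CpG content did not order the intervals by their calls, since Ddx4 and Dazl, with the most CpG, were the intervals with the fewest calls. Calls were counted over whole intervals and were not assigned to promoters. The order therefore does not compare CpG content with the mark at a promoter.

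**Figure D1:**
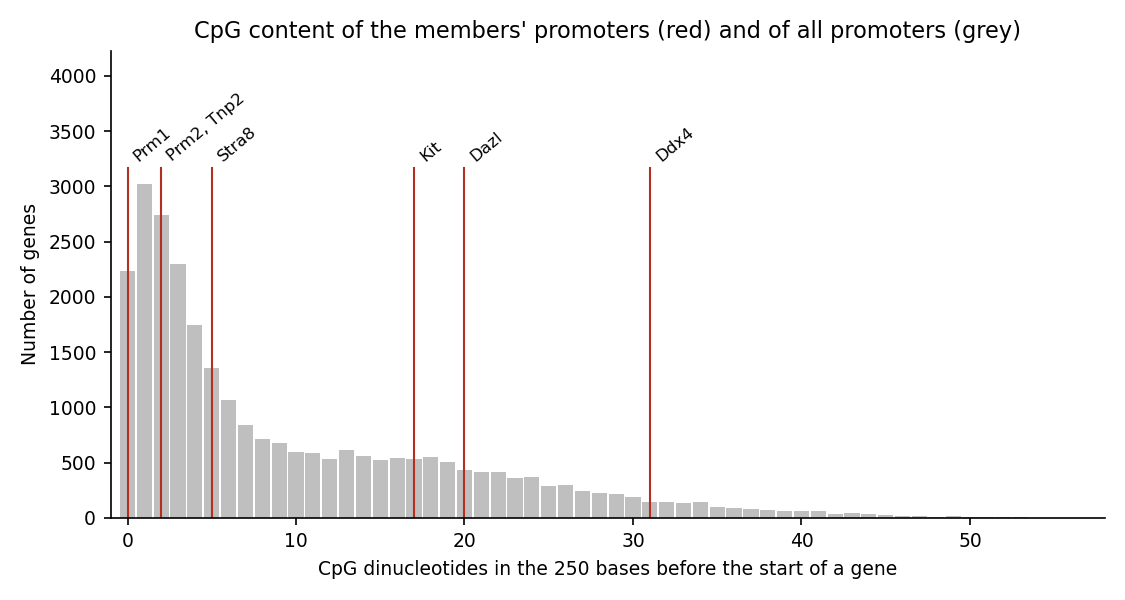
Number of genes (y axis) by the number of CpG dinucleotides in the 250 bases before the start of the gene (x axis), on GRCm38.p6. Red lines mark the members: Prm1 at 0, Prm2 and Tnp2 at 2, Stra8 at 5, Kit at 17, Dazl at 20 and Ddx4 at 31.

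Across the autosomes, peaks listed by MACS2 covered between 26.6 and 33.9 kb per Mb in the 4 libraries, and bins listed by hiddenDomains between 18.5 and 22.5 kb per Mb. Mutant 1 had the most peaks, at 17.5 per Mb against 13.2 to 13.4 per Mb in the other libraries. That excess of mutant 1 touches the counts of MACS2 peaks given here. With the same number of widest peaks taken from each list, the intervals held 4 regions called in all libraries, 0 control-only and 2 mutant-only, against 4, 0 and 3 with the full lists. Read depth is unknown, and the lists hold positions but no height, so a call present or absent says nothing about the level of the mark. The lists give no expression either, so neither the loss of Ezh2 nor the identity of the cells could be checked against marker genes. Nothing in the labels says that libraries of a genotype came from different animals, so tests between genotypes measure only the spread between these libraries.

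The intervals fell into a pair with almost no calls, Ddx4 and Dazl, and 3 with calls in every library, Stra8, Kit and the Prm1, Prm2 and Tnp2 cluster. In the 3 marked intervals the main block of the mark was found by both callers in both controls and both mutants. Beyond those blocks, MACS2 listed short additional peaks, most of them in mutants. MACS2 listed 6 and 5 peaks in the 5 intervals in controls 1 and 2, and 13 and 9 in mutants 1 and 2. With hiddenDomains the intervals held 4 domains (runs of touching bins) in each control and in mutant 2, and 6 in mutant 1.

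**Figure D2:**
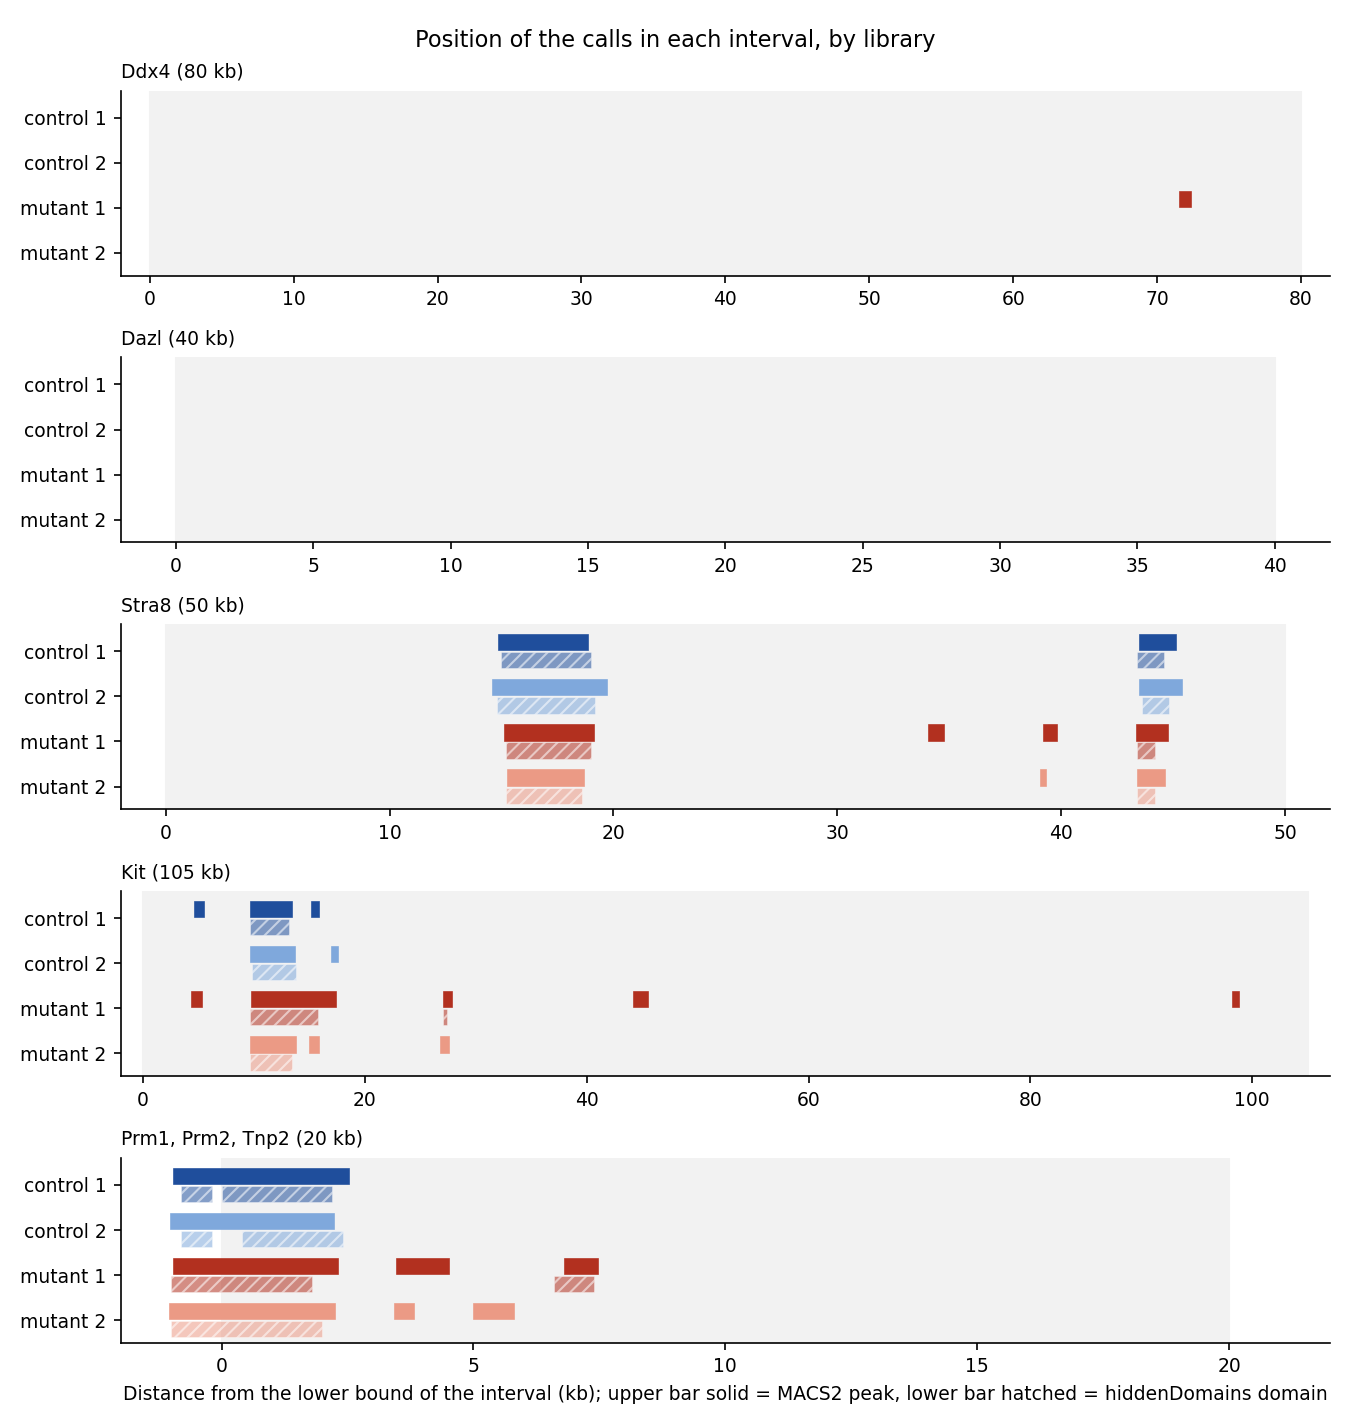
Position of each call in the 5 intervals, as distance in kb from the lower bound of the interval (x axis), with 1 line per library; solid bars are MACS2 peaks, hatched bars hiddenDomains domains, and the grey area is the interval. The Dazl interval is empty, the Ddx4 interval holds 1 peak of mutant 1, and the blocks in the intervals of Stra8, Kit, and Prm1, Prm2 and Tnp2 recur in all 4 libraries. The block in the last of these crosses the lower edge of its interval.

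Dazl had no call in any library with either caller. Its 40-kb interval was not unusual in this, as 58.2% of the 60266 autosomal windows of the same length had no MACS2 peak in any library and 67.1% had no hiddenDomains bin. The nearest MACS2 peaks lay 27.2 to 72.5 kb below the interval and 43.4 to 88.0 kb above it. With hiddenDomains, the nearest call below lay 72.6 to 74.6 kb away in all 4 libraries. Above the interval it lay 88.2 and 43.4 kb away in the controls and 202 kb away in both mutants. MACS2 nevertheless listed peaks that overlap these control bins, 88.0 kb away in mutant 1 and 43.6 kb away in mutant 2. Within 500 kb on either side of the interval, MACS2 peaks covered 18.1 to 30.9 kb per Mb. Bins of hiddenDomains covered 10 to 14.4 kb per Mb there. In each library and with each caller, the surroundings of Dazl were thus covered less densely than the autosomes.

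Ddx4 had no call in either control or in mutant 2, and no hiddenDomains bin in any library. The exception was 1 MACS2 peak of 874 bp in mutant 1 (chr13:113446514-113447387), 71.5 kb from the lower bound of the 80-kb interval. The mean covered length was 0 kb in controls and 0.437 ± 0.618 kb (SD, n = 2) in mutants, a difference made by that peak alone (exact permutation p = 1, two-sided). Of 30129 autosomal windows of 80 kb, 50.2% had MACS2 calls in at most 1 library and 52.4% had no hiddenDomains bin at all. Emptiness of this degree was thus that of a middling autosomal window, but in surroundings that were marked more densely than average, at 43.3 to 51.7 kb per Mb of MACS2 peaks within 500 kb. At 6.4 kb below the interval, hiddenDomains listed the same 400-bp domain in all 4 libraries (chr13:113368201-113368600), and MACS2 listed a peak there in mutant 1 only. Above the interval, MACS2 listed a peak 86.6 to 86.7 kb away in every library, where hiddenDomains had bins in the control libraries but not in the mutant ones.

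**Figure D3:**
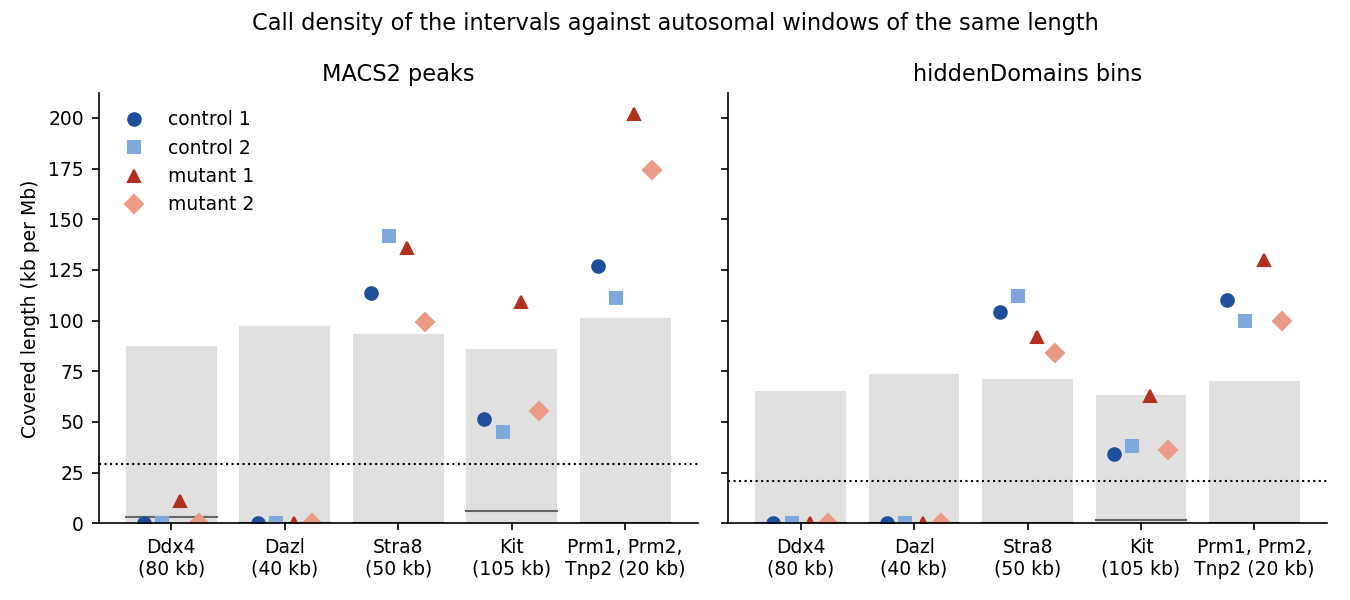
Covered length per Mb (y axis) of each interval and library, with MACS2 on the left and hiddenDomains on the right; grey bars span the 10th to 90th percentile of the mean over libraries in autosomal windows of the same length, grey lines are their medians, and the dotted line is the autosomal mean. Stra8 and the Prm1, Prm2 and Tnp2 cluster lie above the grey bars in all 4 libraries with both callers, and Dazl and Ddx4 lie at or near 0.

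Stra8 carried 2 separate blocks of H3K27me3 in every library, which both callers listed. The lower and wider block spanned chr6:34869569-34874715, from 14.6 to 19.7 kb into the interval, and the upper block chr6:34898340-34900402, from 43.3 to 45.4 kb. In the GRCm38.p6 gene table Stra8 lies between Wdr91 and Slc23a4. No mm9 annotation was used here, so the blocks were not assigned to a gene or to an exon, intron or promoter.

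In the lower Stra8 block, MACS2 peaks covered 4.05 and 5.15 kb in controls 1 and 2 and 4.02 and 3.48 kb in mutants 1 and 2. Both mutants were below both controls, though mutant 1 and control 1 were almost equal. Bins gave 4.0 and 4.4 kb for the controls against 3.8 and 3.4 kb for the mutants. In the upper Stra8 block, peaks gave 1.64 and 1.93 kb for the controls against 1.44 and 1.26 kb for the mutants. Bins gave 1.2 kb for each control there and 0.8 kb for each mutant, a difference of 2 bins of 200 bp. The mutants were again below the controls with both callers. These lengths are not scaled for how much was called in each library.

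Of the 4 member regions called in all 4 libraries, these 2 were shorter in both mutants than in both controls, and they were the same with each caller. Over the genome 38.2% of such regions behaved this way with MACS2 and 39.4% with hiddenDomains, so a shorter block is a frequent outcome in these libraries and 2 of 4 is near that background. The opposite order, longer in both mutants, held for 1 of the 4 member regions with MACS2 (the Kit block, background 14.7%) and for 0 with hiddenDomains (background 6.34%).

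Over the whole Stra8 interval, MACS2 peaks gave 5.68 and 7.07 kb for the controls against 6.80 and 4.98 kb for the mutants, values that overlapped (mean difference -0.49 kb, exact permutation p = 0.667, two-sided). The difference became 0.207 kb without control 2, 0.422 kb without mutant 2 and -0.899 kb with libraries scaled to the same autosomal total. With hiddenDomains the genotypes did not overlap, at 5.2 and 5.6 kb against 4.6 and 4.2 kb (5.40 ± 0.283 and 4.40 ± 0.283 kb, SD, n = 2). The exact permutation p of 0.333 (two-sided, 0.778 after Benjamini-Hochberg adjustment over 7 tests) is the smallest that 2 libraries against 2 can give, and with libraries scaled the difference of -1 kb became -0.403 kb. The interval was covered 4.18 times as densely as the autosomes with MACS2 and 4.66 times with hiddenDomains, and 93.2% and 93.7% of autosomal windows of 50 kb had no more. Within 500 kb on either side, MACS2 peaks covered 18.6 to 29.4 kb per Mb.

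MACS2 also placed a short region between the Stra8 blocks in mutants only. At chr6:34894076-34894800 peaks covered 606 bp in mutant 1 and 239 bp in mutant 2 and none in the controls, with no hiddenDomains bin in any library. A further peak of 733 bp (chr6:34889058-34889790) was listed in mutant 1 alone. Just above the interval, at 0.913 to 0.989 kb from its upper bound, MACS2 listed a short peak in control 2 and both mutants.

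**Figure D4:**
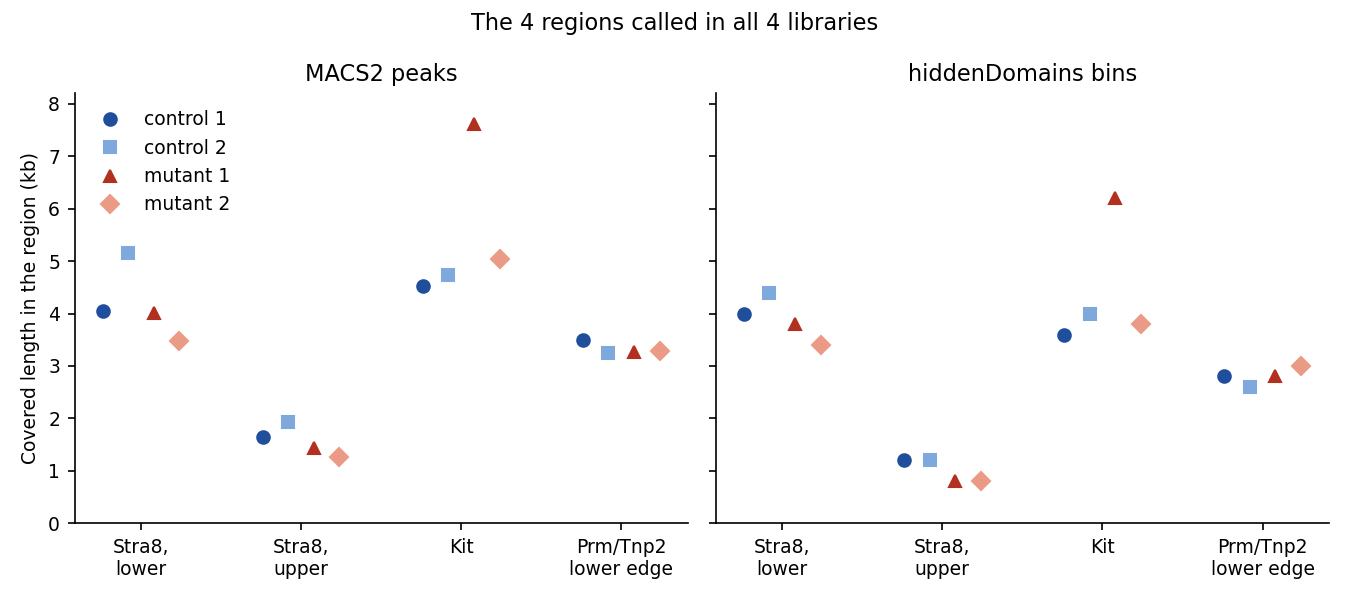
Covered length in kb (y axis) of the 4 regions of the intervals called in all 4 libraries, with 1 point per library, for MACS2 peaks (left) and hiddenDomains bins (right). Both Stra8 regions were shorter in the mutants, the Kit region was longest in mutant 1, and the region at the lower edge of the Prm1, Prm2 and Tnp2 interval was of like length in all 4 libraries.

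Kit carried 1 block near the lower end of its interval in all 4 libraries, and the remainder was almost free of calls in controls. The block spanned chr5:75969660-75977601 (7942 bp), wider than 94.0% of the autosomal MACS2 regions called in all 4 libraries. Its called lower edge lay at nearly the same position in all 4 libraries, as the first peak of the block began between 75969660 and 75969729. The GRCm38.p6 gene table places Kit between Pdgfra and Kdr, both also receptor tyrosine kinase genes. The nearest MACS2 peak above the interval was 30.7 to 139 kb away, and the nearest below it 34.8 to 45.3 kb.

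In the Kit block, MACS2 peaks covered 4.53 and 4.73 kb in controls 1 and 2 and 7.63 and 5.04 kb in mutants 1 and 2. Both mutants exceeded both controls, by a wide margin in mutant 1 and narrowly in mutant 2. Controls 1 and 2 and mutant 2 had a main peak of 3768, 4058 and 4137 bp followed by a short separate peak of 761, 675 and 899 bp. The short peak began at 75975112 in control 1 and at 75975005 in mutant 2, but at 75976927 in control 2. Mutant 1 had 1 unbroken peak of 7627 bp over the same stretch. With hiddenDomains the block had 3.6 and 4.0 kb for the controls against 6.2 and 3.8 kb for the mutants, so that mutant 2 fell between the controls and only mutant 1 was longer.

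Over the whole Kit interval, peaks gave 5.42 and 4.73 kb for the controls against 11.4 and 5.83 kb for the mutants (5.08 ± 0.486 against 8.63 ± 3.96 kb, SD, n = 2). The difference of 3.56 kb was smaller than the SD of the mutants (exact permutation p = 0.333, two-sided, the smallest possible, 0.778 after adjustment), and it became 0.756 kb without mutant 1. With hiddenDomains the values were 3.6 and 4.0 kb against 6.6 and 3.8 kb and overlapped (exact permutation p = 0.667, two-sided), and the difference of 1.4 kb became 0 without mutant 1. Without scaling, the wider coverage of Kit in mutants was therefore largely that of 1 library. With libraries scaled to the same autosomal total, the differences were 2.90 kb with MACS2 and 1.88 kb with hiddenDomains. The genotypes then no longer overlapped with hiddenDomains (exact permutation p = 0.333 with each caller, two-sided, the smallest possible). Kit was covered 2.18 ± 0.723 times as densely as the autosomes with MACS2 (SD, n = 4) and 2.05 ± 0.650 times with hiddenDomains (SD, n = 4). Of autosomal windows of the same length, 85.7% and 83.7% had no more. The surroundings were dense as well, at 55.4 to 70.5 kb per Mb of MACS2 peaks within 500 kb. The interval held 51.6 and 45.1 kb per Mb in controls 1 and 2, below their own surroundings at 69.65 and 62.0. In mutant 1 it held 109 against 70.5 around it, and in mutant 2 55.5 against 55.4. With hiddenDomains, only mutant 1 was covered more densely in the interval than around it.

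Outside the block, the Kit interval held 4 further MACS2 regions. One at chr5:75986754-75987866 was called in both mutants, at 809 and 796 bp, and in neither control. It was the only region of the mutant-only kind in which a hiddenDomains bin was also listed, with 400 bp in mutant 1. The others were a region at chr5:75964339-75965450 with 891 bp in control 1 and 948 bp in mutant 1, and peaks of 1406 and 647 bp in mutant 1 alone, at chr5:76004167-76005572 and chr5:76058180-76058826.

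The Prm1, Prm2 and Tnp2 interval had a block across its lower edge in every library and no call in its upper 12 kb. The block spanned chr16:10783961-10787538 (3578 bp), of which 2538 bp lay inside the interval. In the GRCm38.p6 gene table the order along the chromosome is Socs1, Tnp2, Prm3, Prm2 and Prm1. Socs1, which encodes an inhibitor of cytokine signalling, is thus the neighbour on the side of the block, and to which gene the block belongs was not determined. The highest call of any library ended 7.47 kb into the interval of 20 kb.

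The block itself was alike in all libraries. MACS2 peaks made up 3.50 and 3.25 kb of it for the controls against 3.27 and 3.29 kb for the mutants, and bins covered 2.8 and 2.6 kb against 2.8 and 3.0 kb. The ranges of the genotypes overlapped with MACS2 and touched with hiddenDomains. In the controls the bins were broken by a gap, whereas in the mutants they ran without one.

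Above the block, MACS2 listed 3 short regions, all of them in mutants and none in a control. At chr16:10788425-10789523 peaks covered 1070 bp in mutant 1 and 404 bp in mutant 2. At chr16:10789986-10790813 a peak of 828 bp was listed in mutant 2 alone, and at chr16:10791803-10792469 one of 667 bp in mutant 1 alone, where hiddenDomains also listed 800 bp in that library. These peaks set the mutants apart over the interval, at 2.54 and 2.22 kb for the controls against 4.04 and 3.49 kb for the mutants (2.38 ± 0.224 against 3.76 ± 0.391 kb, SD, n = 2). The difference of 1.38 kb exceeded the spread between libraries of a genotype, with an exact permutation p of 0.333 (two-sided, the smallest possible, 0.778 after adjustment). It stayed between 1.11 and 1.66 kb when any 1 of the 4 libraries was left out. The surroundings differed as well. Within 500 kb on either side, MACS2 peaks covered 27.65 and 27.43 kb per Mb in controls 1 and 2. They covered 52.33 kb per Mb in mutant 1 and 30.02 in mutant 2. In the 100-kb window chr16:10700001-10800000, hiddenDomains bins gave 2.8 and 2.6 kb for the controls against 8 and 3.4 kb for the mutants. Whether the difference is specific to the interval was not tested.

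With hiddenDomains the same interval had 2.2 and 2.0 kb for the controls against 2.6 and 2.0 kb for the mutants, and the difference of 0.2 kb was smaller than the spread of the mutants (exact permutation p = 1, two-sided). With libraries scaled to the same autosomal total that difference was 0.456 kb. The interval was covered 5.23 times as densely as the autosomes with MACS2 and 5.26 times with hiddenDomains, and 93.6% and 93.1% of autosomal windows of 20 kb had no more. As the block crosses the edge of the interval, this ratio depends on where the interval was drawn.

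**Figure D5:**
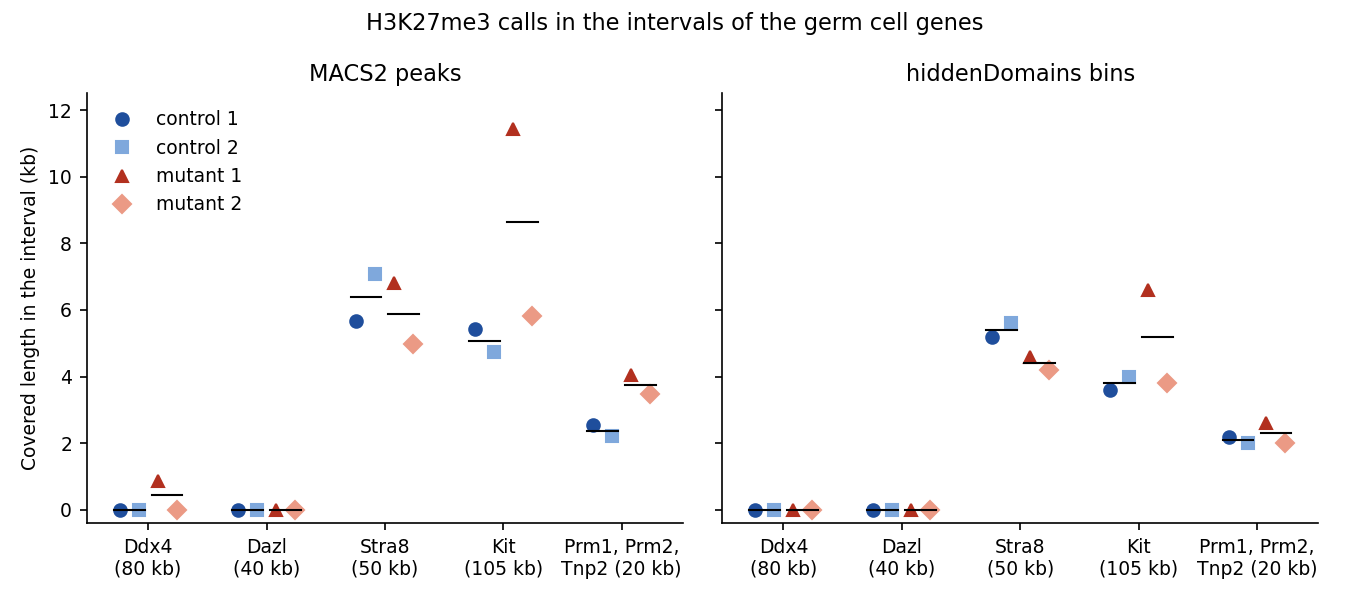
Covered length in kb (y axis) of each interval in each library, for MACS2 peaks (left) and hiddenDomains bins (right); points are libraries and black lines the means of 2 libraries. With MACS2 the mutants lie above the controls for Kit and for the Prm1, Prm2 and Tnp2 interval, and with hiddenDomains they lie below them for Stra8.

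Taking the intervals as one set of regions, the patterns of calls were compared with all autosomal regions. With MACS2, 4 of the 14 member regions were called in all 4 libraries, where 36.4% of autosomal regions were. None of the 14 was called in both controls and neither mutant (background 4.92%), and 3 were called in both mutants and neither control (background 5.97%). The 3 mutant-only regions were those described for Stra8, Kit and the Prm1, Prm2 and Tnp2 interval, 725, 1113 and 1099 bp wide, each shorter than the median of 1337 bp over the autosomal mutant-only regions. A further 5 regions were called in mutant 1 alone (background 21.1%) and 1 in mutant 2 alone (background 6.35%). None was called in control 1 alone (background 5.29%) or control 2 alone (background 5.35%). Regions of mutant 1 alone were thus the most frequent of these 4 kinds over the autosomes as well. Under the rule that a call must span 50% or more of its region, the one in the Kit interval alone was left, and without mutant 2 the count became 8.

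With hiddenDomains, 4 of the 6 member regions were called in all 4 libraries (background 43.5%). The other 2 were called in mutant 1 alone (background 16.4%), so that 0 were control-only (background 7.55%) and 0 mutant-only (background 2.79%). The blocks of Stra8, Kit and the Prm1, Prm2 and Tnp2 interval were thus listed by both callers in all libraries. Of the mutant-only MACS2 regions, that of Kit had a hiddenDomains call in mutant 1 and the others had none.

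A difference in covered length was finally tested in 5-kb windows over the whole genome, with limma on log2(kb + 1) of the hiddenDomains bins. Of the 25276 windows covered by 0.5 kb or more on average, 4 lay in the intervals. Windows called lower in the mutants made up 5.71% of those tested, and windows called higher 0.934% (limma, Benjamini-Hochberg adjusted p under 0.05). These were 1442 lower and 236 higher windows, and with libraries scaled to the same total the split was 580 lower and 264 higher. Of the 4 member windows 1 was called lower and 0 higher.

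The window that fell held the upper Stra8 block (chr6:34895001-34900000), with 1.2 kb in each control and 0.8 kb in each mutant. Its log2 difference was -0.29 (SE 0.01, limma adjusted p = 0.0187). Bins are counted in steps of 0.2 kb and both libraries of each genotype had the same value, so the SE reflects no measured spread within a genotype. The log2 difference stayed at -0.29 but missed the threshold with the replicate number as a block (limma adjusted p = 0.161), with a coverage minimum of 1 kb (0.0512) and in 20-kb windows (0.0643). It was -0.23 with bins of the highest score only (limma adjusted p = 0.499), -0.20 with libraries scaled to the same total (0.430) and -0.10 with MACS2 peaks (0.601). In the 100-kb window that held both Stra8 blocks it was -0.25 (limma adjusted p = 0.136), and with scaled MACS2 peaks in 5-kb windows -0.15 (0.681). With MACS2, the peaks of both controls ran past the upper end of the 5-kb window. Before scaling, the window held 1.515 and 1.525 kb of their 1.635 and 1.927 kb. It held all of the 1.444 and 1.256 kb of the mutants.

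The other 3 member windows did not pass. The window over most of the lower Stra8 block (chr6:34870001-34875000) had 4.0 and 4.2 kb for the controls against 3.8 and 3.4 kb for the mutants. Its log2 difference was -0.15 with an SE of 0.06 (limma adjusted p = 0.309), which became -0.01 with libraries scaled (limma adjusted p = 0.946). The window inside the Kit block (chr5:75970001-75975000) had 3.2 and 3.8 kb against 5.0 and 3.4 kb (log2 difference 0.19, SE 0.22, limma adjusted p = 0.614). With libraries scaled its log2 difference was 0.33 (limma adjusted p = 0.293). The block extended beyond both ends of this window. Mutant 1 covered the whole 5 kb, so the window caps the length measured in that library. The window of the Prm1, Prm2 and Tnp2 interval (chr16:10785001-10790000) had 2.2 and 2.0 kb against 1.8 and 2.0 kb (log2 difference -0.10, SE 0.06, limma adjusted p = 0.487). Among all tested windows the median log2 difference was -0.09, in the direction of both Stra8 windows, and 0.02 with libraries scaled. With MACS2 peaks in the same windows, 0 of 35491 windows passed in either direction (limma), at an unadjusted p under 0.05 there were 3199 higher and 3612 lower, and none of the 5 member windows was among them.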

How the data were processed

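The authors deposited for each of the 4 ChIP libraries a list of MACS2 peaks and a list of bins from hiddenDomains, a caller for broad marks, per the file headers and names. Bowtie, SAMtools and bedtools were used with mm9, per the submitters' processing notes, and no source used here gives versions, calling thresholds or control tracks. Peak lists hold positions only. The deposited bins are mostly 200 bp wide and carry a display score of 4 values up to 1000, whose meaning is not given. The 2 input samples were not analysed here.

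Touching calls were joined, and covered length was computed per library, interval and region (Python 3.11.15, numpy 2.4.6). Intervals run from the base after the stated lower bound. Autosomal windows tile each autosome from its first to its last called base. Covered length was compared by exact permutation over libraries. For 5-kb windows over the autosomes and X, log2(kb + 1) was compared by limma 3.58.1 (empirical Bayes with a trend, Benjamini-Hochberg adjustment over all windows). No check of either test on stepped values without spread within a genotype, as in the upper Stra8 window, is reported here. All members, and every region and tested window in their intervals, are named. The members, lists and tests were chosen with earlier results of these data known, and the count of shared regions that do not overlap in length was added after seeing the data. Alternatives changed the caller, score, joining distance, interval bounds, overlap, list size, window size and placement, pseudocount, coverage minimum, scaling, replicate block and each library left out. Promoters come from the RefSeq table of GRCm38.p6, with the first start listed per gene. Promoters of 7 of 12 early germ cell and 8 of 12 meiotic genes were matched, too few for a comparison, which is void.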

Additional observations from a re-analysis of the deposited data

How the results depend on the processing

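Blocks called in all 4 libraries numbered 4 under every alternative run with either caller. Exact tests on intervals could not pass any threshold, so direction alone was compared. The Ddx4 difference of 0.437 kb with MACS2 was 0 kb with hiddenDomains and ranged from 0 to 0.874 kb with a library left out. For Stra8 with MACS2 that range was -1.40 to 0.422 kb, with 0.207 kb without control 2. With hiddenDomains it was 0 to 2.8 kb for Kit and -0.1 to 0.5 kb for the Prm1, Prm2 and Tnp2 interval, where joining calls up to 1 kb apart gave 0 kb. Mutant-only MACS2 regions numbered 1 with 50% overlap, 0 with hiddenDomains and 3 to 8 with a library left out, and those of hiddenDomains 0 to 2. The cause was not tested.

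The 236 higher and 1442 lower windows of the genome became 88 and 898 with 20-kb windows, 26 and 538 with 100-kb windows, 364 and 2201 without a coverage minimum, and 88 and 570 with a minimum of 1 kb. They were 264 and 580 with libraries scaled, where the median log2 difference moved from -0.09 to 0.02. Both counts were 0 with MACS2 peaks and 0 with these peaks scaled, which was chosen after seeing the data (limma; 3282 higher and 3322 lower at an unadjusted p under 0.05). With a library left out, 485 to 1809 were higher and 2274 to 4689 lower, where a lone library is assumed to vary like the others. With the replicate number as a block both counts were 0 (limma; 1044 higher and 4795 lower at an unadjusted p under 0.05). Libraries of the same number shared little, with a correlation of deviations of 0.0377 over windows, and no label pairs them. Within pairs the exact test of an interval cannot give a p below 0.5.

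The Kit window had a log2 difference between -0.0292 (without mutant 1) and 0.418 (without mutant 2) with a library left out. The Prm1, Prm2 and Tnp2 window had 0.25 with MACS2 peaks, 0.18 with these scaled, 0.0498 with bins of the highest score and 0.0223 with libraries scaled. The upper Stra8 window kept its sign in every alternative of 5-kb windows, and its limma adjusted p was between 0.0139 and 0.681. Unknown read depth limits every statement on missing calls.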
